A study of Caenorhabditis elegans with 16 samples.

Results

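Fasted adult *Caenorhabditis elegans* nematodes labelled H3K27ac-deficient were compared with fasted wild-type animals by RNA sequencing of whole animals, in 8 of the 16 libraries of the study. The 4 wild-type libraries came from the N2 strain fed bacteria that carried an empty RNA interference vector (EV). The 4 other libraries came from animals with a deletion in *jmjd-3.1* that were fed bacteria directed against *cbp-1*. Both groups were kept at 20 °C, grown to adult day 1, moved to plates without food for 24 h and collected on adult day 2. The remaining 8 libraries hold the same genotypes with food over the same 24 h and are used here only beside the fasted comparison. Each library pooled about 1000 animals, and the replicates are described as biologically independent. The labels name the *jmjd-3.1* allele as gk384 in titles and gk387 in the genotype field, and they name both OP50-1 and RNA interference plates for growth. Mutation and RNA interference always occurred together, both act in the whole animal, and their effects cannot be told apart.

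Acetylation of lysine 27 on histone H3 marks active promoters and enhancers. *cbp-1* encodes the nematode relative of the acetyltransferases CBP and p300, which write this mark, and *jmjd-3.1* encodes a demethylase that removes methyl groups from the same lysine. In *C. elegans* the intestine is the main site of fat storage, digestion and defence, and fasting is known to draw on fat through lysosomal lipases and beta-oxidation and to engage the transcription factors DAF-16, HLH-30 and NHR-49. Adult hermaphrodites carry a large germline, so RNA of whole adults mixes germline and somatic transcripts.

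Reads assigned to genes, in units of 1e6 reads, came to 17.9 to 20.9 in the fasted wild-type libraries and 16.4 to 23.7 in the fasted labelled-deficient libraries. Levels are given as counts per 1e6 reads (CPM) after scaling by the trimmed mean of M values (TMM), and differences are on the log2 scale, labelled-deficient minus wild type. Genes are called at an adjusted p of 0.05 in the quasi-likelihood test of edgeR, with Benjamini and Hochberg adjustment over the 15840 genes tested. The first principal component of the 8 libraries held 75.4% of the variance and separated the genotypes. Replicate 4 of both groups stood apart on the second component, which held 5.48%, at -16.6 in wild type and -30.3 in the labelled-deficient group. Several, though not all, counts that lean on these libraries are therefore also given without them. That alternative was chosen after the data were seen.

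The first check was of the 2 targeted genes. *cbp-1* (WBGene00000366; plus strand of chromosome III at 9766509 to 9774825) was at 128, 171, 151 and 147 CPM in wild-type replicates 1 to 4 and at 259.9, 261, 261 and 322 CPM in labelled-deficient replicates 1 to 4. All labelled-deficient libraries were above all wild-type libraries, and the difference was 0.89 (SE 0.14; edgeR adjusted p 1.01e-05). Reads of the gene fell on transcripts R10E11.1c.1 and R10E11.1b.1. Transcript R10E11.1c.1 was at 12.63 ± 1.41 TPM (transcripts per 1e6, per length) for wild type against 25.6 ± 2.86 TPM for the labelled-deficient group (SD, n = 4). R10E11.1b.1 was at 2.36 ± 0.562 and 6.37 ± 1.01 TPM (SD, n = 4), and 2 more transcripts were listed at 0 in all 8 libraries. *jmjd-3.1* (WBGene00017571; plus strand of chromosome X at 8571047 to 8575451) was at 16.4, 22.7, 20.8 and 20.3 CPM in the wild-type libraries against 23.2, 21.3, 21.1 and 21.8 CPM in the labelled-deficient ones. The groups overlapped, and the difference did not exceed the spread between replicates, at 0.12 (SE 0.12; edgeR adjusted p 0.387). Acetylation itself was not measured in these libraries. Neither target was lower in reads summed per gene. Such sums do not show where within a gene the reads fell. Whether the mutation and the RNA interference took effect was therefore not tested. The group is called by its label, and every direction below rests on that label.

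Among the relatives of the targets, the other demethylase genes and the *cbp* paralogues did not pass the test when fasted. *jmjd-3.3* was at -0.43, *jmjd-3.2* at -0.16, *utx-1* at -0.07, *cbp-2* at 0.13 and *cbp-3* at -0.35 on the log2 scale. In this list of 7 genes 1 was called higher, against 28.2% of all tested genes. None was called lower by edgeR, against 29.3% of all tested genes, with 2 lower at an unadjusted p under 0.05, 1 by DESeq2 and none by limma voom. Of the genes for the complex that methylates the same lysine, which works like Polycomb repressive complex 2, *mes-6* and *mes-2* were higher, at 1.07 (SE 0.12) and 0.77 (SE 0.12). *mes-6* went from 31.4 ± 3.803 to 65.8 ± 3.73 CPM (SD, n = 4). It overlaps C09G4.4 by 491 bases on the same strand, so the reads of *mes-6* are uncertain. C09G4.4 had a mean of 21.9 CPM over the 8 fasted libraries. The third member, *mes-3*, was at 0.15 and not called.

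The majority of the genes tested differed between the fasted genotypes. Of 15840 genes, 9114 (57.5%) were called, 4472 (28.2%) higher and 4642 (29.3%) lower in labelled-deficient libraries. Counts of list members when fasted, given below, are to be read beside these shares of 28.2% and 29.3%. Lower genes moved further: 2209 were at least 2-fold lower and 999 at least 2-fold higher. In 9111 genes (57.5%) the libraries of the groups did not overlap. The median difference of all tested genes was -0.04, and no other scaling moved it by more than 0.03. TMM and DESeq2 size factors hold the typical gene near 0, so this median is in large part set by the scaling. Levels are relative within a library, and RNA per animal was not measured in these libraries.

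The 10 largest deficits among genes with a mean of at least 5 CPM and no overlap between groups belonged to an insulin-like peptide, a small heat shock protein, enzymes and short secreted peptides. *ins-19* (WBGene00002102; minus strand of chromosome II at 3126037 to 3126441), a gene of the insulin-like peptide family, had 280, 324, 360 and 302 reads in wild-type replicates 1 to 4 and 2, 2, 1 and 2 reads in the labelled-deficient ones. It was nearly undetected in every labelled-deficient library. From the summed reads of 1266 and 7 the ratio was 170-fold lower, with a 95% counting interval of 82.4 to 424, and the fitted difference was -7.31 (SE 0.33; edgeR adjusted p 5.24e-14). *hsp-12.6* (WBGene00002013; minus strand of chromosome IV at 9446229 to 9447228), a small heat shock protein gene known as a target of DAF-16, was at 233, 226, 229.7 and 199 CPM among wild-type replicates and 4.14, 4.301, 4.797 and 3.28 CPM among labelled-deficient replicates. The deficit of -5.74 (SE 0.16; edgeR adjusted p 9.05e-17) took the gene from rank 137 to rank 5272 by mean TPM, a level per transcript length.

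*cyp-25A1*, a cytochrome P450 gene, was at 36.7, 33.4, 41.6 and 29.8 CPM for wild type, compared with 1.04, 0.9799, 1.02 and 0.417 CPM for the labelled-deficient group, a difference of -5.31 (SE 0.26). *asp-13* of the aspartyl protease family (WBGene00017881; minus strand of chromosome V at 8641602 to 8643193) was at 223, 203, 222 and 173 CPM against 8.51, 7.73, 7.92 and 7.27 CPM, a difference of -4.702 (SE 0.16; edgeR adjusted p 1.53e-15). *cest-1*, of the carboxylesterase family, was at 13.2, 15.7, 15.1 and 11.5 CPM against 0.345, 0.109, 0.485 and 0.179 CPM, and *fipr-24* at 19.8, 18.4, 20.9 and 15.2 CPM against 0.537, 0.218, 0.377 and 0.179 CPM. The lack of overlap between groups in each of these genes was a condition of their choice. The other 4 genes, *nspc-16* to *nspc-19*, lie side by side on chromosome X between 14523575 and 14529114 and encode nematode-specific peptides. Their differences were -5.497, -5.56, -6.74 and -4.53. *nspc-17* was at 69.7, 66.9, 57.2 and 46.6 CPM in the wild-type libraries against 0.843, 1.42, 1.56 and 1.37 CPM in the labelled-deficient ones. Members of this family and of the *fipr* family resemble each other and may share reads, so their single values are uncertain.

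The 10 largest excesses were led by *scl-11* (WBGene00009892; plus strand of chromosome IV at 13051373 to 13052219), which encodes a secreted protein of the SCP family. It had 2, 2, 6 and 2 reads in wild-type replicates 1 to 4 and 265, 283, 196 and 272 reads in labelled-deficient replicates 1 to 4. The ratio from summed reads was 89.9-fold higher, with a 95% counting interval of 51.2 to 175, and the fitted difference was 6.47 (SE 0.32; edgeR adjusted p 3.03e-13). *lips-11*, a lipase family gene, was at 0.525, 0.544, 0.134 and 0.377 CPM among wild-type replicates and 14.3, 11.9, 15.4 and 22.9 CPM among labelled-deficient replicates, a difference of 5.34 (SE 0.28). *lys-3* (WBGene00003092; minus strand of chromosome V at 10282100 to 10283544), a lysozyme gene, was at 6.504, 4.81, 4.33 and 4.72 CPM against 58.1, 64.6, 62.5 and 57.03 CPM, a difference of 3.58 (SE 0.23; edgeR adjusted p 2.91e-11). By mean TPM *lys-3* went from rank 9153 to rank 2100, whereas its neighbour *lys-2* went from rank 3432 to rank 10661.

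The other 7 genes of largest excess carry only sequence names. W09G12.7 was at 28.5, 25.23, 25.5 and 24.9 CPM for wild type, compared with 212, 240.4, 261 and 196 CPM for the labelled-deficient group, a difference of 3.13 (SE 0.17). K04A8.21 was at 7.19, 6.67, 7.001 and 4.95 CPM against 89.8, 121, 128 and 114 CPM, and it lies within *twk-10* on the opposite strand, whose reads cannot be told apart here because strand use is not stated. C50F7.5 differed by 3.21 (SE 0.14), R07C12.1 by 3.21 (SE 0.15), C55C3.3 by 3.22 (SE 0.21), ZK355.3 by 3.23 (SE 0.28) and K11H12.4 by 3.49 (SE 0.18). R07C12.1 shares its place with K08D10.10 on the same strand, so its reads are uncertain. The lack of overlap between groups in these 7 was a condition of their choice. Of the 20 genes, 6 of the 10 highest lie on chromosome IV and 4 of the 10 lowest on chromosome X. Chromosome IV holds 2603 and chromosome X 2298 of the 15820 tested genes with a position. The 4 on X are the adjacent *nspc-16* to *nspc-19*, a single place in the genome.

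Genes for the release of stored fat differed by family. Of 7 tested lysosomal acid lipases, which cleave lipids inside lysosomes, 5 were lower and none higher, with a median of -2.67. *lipl-3* (WBGene00020016; minus strand of chromosome V at 521595 to 524218), known to be induced by fasting in wild type, was at 280.5, 261, 293 and 288 CPM in the wild-type libraries against 19.4, 15.2, 16.3 and 17.3 CPM in the labelled-deficient ones. The libraries of the groups lay more than 10-fold apart, and the difference was -4.04 (SE 0.13; edgeR adjusted p 3.81e-16). *lipl-4* was at 11.3, 12.7, 11.9 and 11.8 CPM against 0.843, 0.762, 0.809 and 1.13 CPM, a difference of -3.75 (SE 0.21). *lipl-2* was at -3.24, *lipl-1* at -2.67 and *lipl-5* at -2.596, while *lipl-6*, at -0.12, and *lipl-7*, at 0.18, were not called.

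Other lipases had 5 of 18 higher and 7 lower, with a median of -0.25. The shares over all tested genes were 28.2% higher and 29.3% lower. *fil-1*, a fasting-induced lipase gene, was lower, at -1.901 (SE 0.19), in contrast to *lips-11*. In beta-oxidation and carnitine transfer 22 of 43 genes were lower and 7 higher, and the number higher was 3 without replicate 4 of both groups. *cpt-3*, a carnitine palmitoyltransferase gene, was at 91.3, 90.3, 97.3 and 107 CPM among wild-type replicates and 3.297, 4.25, 3.77 and 6.85 CPM among labelled-deficient replicates, a difference of -4.43 (SE 0.19). *acdh-1* (WBGene00016943; plus strand of chromosome I at 6497436 to 6499560), an acyl-CoA dehydrogenase of propionate breakdown, was at 137, 113, 131 and 109 CPM against 5.71, 6.64, 6.31 and 5.96 CPM, a difference of -4.32 (SE 0.17; edgeR adjusted p 5.31e-15). *nhr-68*, a nuclear receptor known to activate *acdh-1* in this species, was itself lower, at -2.34 (SE 0.17). The enoyl-CoA hydratase gene *ech-9* differed by -3.503 (SE 0.19).

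Acyl-CoA synthetases, which activate fatty acids, were lower for 13 of 20 genes and higher for 3. *acs-3* was at -2.07 (SE 0.15) and *acs-22* at -1.91 (SE 0.102). Desaturases and elongases, which build unsaturated and branched fatty acids, were lower for 12 of 15 and higher for 2, with a median of -1.52, and the number higher was 0 without replicate 4 of both groups. *fat-3*, a desaturase gene of polyunsaturated fatty acid synthesis, was at 529, 461, 522 and 475 CPM for wild type, compared with 96.2, 76.9, 84.8 and 91.4 CPM for the labelled-deficient group, a difference of -2.51 (SE 0.12; edgeR adjusted p 1.21e-13). *elo-6* of branched-chain elongation was at 1237, 1227, 1302 and 858 CPM against 229, 300.2, 279 and 215 CPM, with wild-type replicate 4 the lowest of its group, and differed by -2.18 (SE 0.19). Fat synthesis proper was divided, with 5 of 11 genes higher and 4 lower, and 3 higher without replicate 4 of both groups. *sbp-1*, the relative of the lipid regulator SREBP, was lower, at -1.202 (SE 0.12), and *dgat-2*, of triglyceride synthesis, was higher by 1.53 (SE 0.11).

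The yolk genes, which carry lipid from intestine to oocytes, were lower for 5 of 6 and higher for 1. Without replicate 4 of both groups 5 were lower and 0 higher. The 6 genes together had 47940.5 to 57954 CPM in fasted wild-type and 24272 to 29942 CPM in fasted labelled-deficient libraries. *vit-5* was at 12809, 14306, 14939 and 13446 CPM against 6196, 5532, 6805 and 7076 CPM, a difference of -1.12 (SE 0.13). *vit-3* had the largest deficit, -2.81 (SE 0.13), while *vit-2*, *vit-4* and *vit-6* were at -0.97, -0.66 and -0.82 and *vit-1* at 0.42. These genes are similar in sequence, and the division of reads among them is uncertain.

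**Figure D1:**
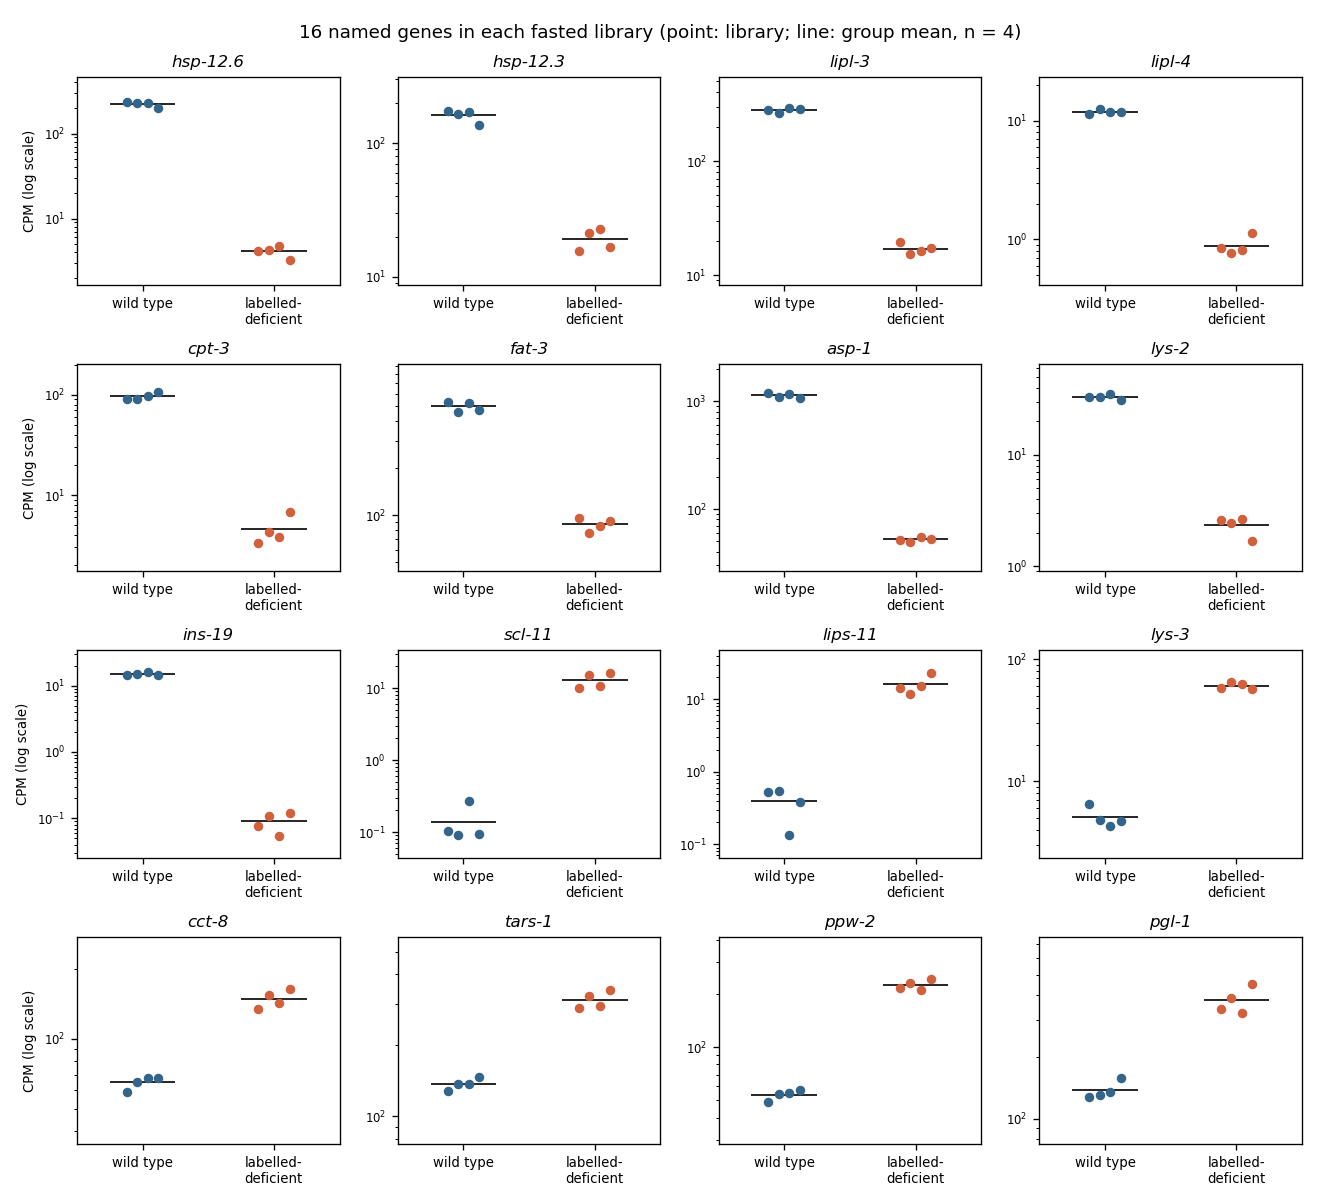
CPM (log scale, range set for each panel) of 16 named genes in each of the 8 fasted libraries, with a point for each library and a line at the group mean. The groups do not overlap in any panel; the first 9 genes are lower and the last 7 higher in the labelled-deficient libraries.

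Central carbon metabolism moved less uniformly. In the glyoxylate cycle and gluconeogenesis 4 of 7 genes were lower and 1 higher, and 4 lower and 0 higher without replicate 4 of both groups. *pck-1* and *pck-2*, for phosphoenolpyruvate carboxykinase, were lower, at -1.62 (SE 0.13) and -1.59 (SE 0.11), and *pck-2* was at 1228, 1379, 1376 and 1287 CPM in the wild-type libraries against 407, 438, 441 and 461 CPM in the labelled-deficient ones. *icl-1*, the bifunctional glyoxylate enzyme, was at -1.35, *mdh-1* at -0.29 and *mdh-2* at 0.45, all called, whereas *fbp-1*, at -0.26, and *pyc-1*, at -0.09, were not. Glycolysis had 5 of 19 genes higher and 5 lower, near the shares over all genes, with *aldo-2* at -1.35 (SE 0.13) and *pyk-2* at -1.22 (SE 0.12). Trehalose and glycogen genes had 4 of 13 higher and 6 lower, with the trehalose synthase gene *tps-1* at -1.44 (SE 0.104). The trehalase gene *tre-5* was at -1.54 (SE 0.18) but lies wholly within *sptl-1* on the other strand, and its reads are uncertain. One-carbon and phosphatidylcholine synthesis had 4 of 16 lower and 2 higher. *pmt-1*, a methyltransferase of phosphatidylcholine synthesis, was lower, at -1.36 (SE 0.104), and *sams-1*, which makes the methyl donor S-adenosylmethionine, by -1.22 (SE 0.12). Amino acid transporters had 3 of 9 lower and 2 higher, near the shares over all genes, with *aat-6* at -0.98 (SE 0.12) and *aat-1* at -0.803 (SE 0.15). Short-chain, aldehyde and alcohol dehydrogenases had 26 of 44 lower and 7 higher, led by *dhs-20*, at -3.45 (SE 0.22), and *dhs-21*, at -2.29 (SE 0.17). The number higher in that family was 4 without replicate 4 of both groups, and also without any 1 of wild-type replicates 3 and 4 and labelled-deficient replicates 2 and 4.

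Insulin signalling restrains DAF-16, the FOXO factor that is active in fasting. Of 29 tested insulin-like peptide genes 9 were lower and 5 higher, with *ins-19* at one end and *ins-22* at the other. *ins-22* was at 2.99, 2.31, 2.14 and 1.93 CPM among wild-type replicates and 8.59, 14.8, 13.3 and 10.7 CPM among labelled-deficient replicates, a difference of 2.34 (SE 0.21). The pathway from the receptor to DAF-16 had 5 of 13 genes higher and 5 lower. The receptor substrate gene *ist-1* was at -1.37 (SE 0.14) and the kinase gene *akt-2* at -1.16 (SE 0.11). Of 12 tested genes known as direct or class I targets of DAF-16, 10 were lower and 2 higher, with a median of -1.61. *sod-3*, the superoxide dismutase gene often used as a DAF-16 reporter, was at 10.2, 10.8, 11.19 and 9.904 CPM for wild type, compared with 0.958, 0.436, 1.56 and 1.55 CPM for the labelled-deficient group, a difference of -3.24 (SE 0.24; edgeR adjusted p 2.33e-10). The list also holds *hsp-12.6*, described above.

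The *dod* class II genes, known to fall when DAF-16 is active, were lower as well, 5 of 7 against 1 higher. *dod-22* was at -4.51, *dod-24* at -3.66, *dod-21* at -1.98, *dod-23* at -1.501 and *dod-17* at -1.11, while *dod-19* was higher at 2.39 and *dod-20*, at 0.94, was not called. In AMPK and TOR signalling, the energy and nutrient sensors, 10 of 23 genes were higher and 5 lower. The AMPK subunit genes moved apart: *aakg-4*, of the regulatory gamma family, was lower, at -1.83 (SE 0.11), and *aak-1*, a catalytic subunit, was higher by 1.14 (SE 0.11). Among regulators of fasting and fat 15 of 33 were lower and 10 higher, and 7 higher without replicate 4 of both groups. The largest member differences were those of *nhr-68* and *sbp-1*, and the heat shock factor gene *hsf-1* was higher by 0.93 (SE 0.13). The wider nuclear hormone receptor family had 97 of 215 tested genes lower and 18 higher, with *nhr-143* at -1.703 (SE 0.17).

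Genes that make and fold proteins were mostly higher in labelled-deficient libraries, by small amounts. Of 72 translation factors and aminoacyl tRNA synthetases, 58 were higher and 1 lower, with a median of 0.54. *ife-3* (WBGene00002061; minus strand of chromosome V at 6584 to 7828), a cap-binding initiation factor of the eIF4E family, was at 124, 122, 124 and 137 CPM in the wild-type libraries against 303, 362, 307 and 389.8 CPM in the labelled-deficient ones. All labelled-deficient libraries were above all wild-type ones, by 1.42 (SE 0.14; edgeR adjusted p 1.58e-08). The threonyl tRNA synthetase gene *tars-1* was at 127, 137, 137 and 146 CPM against 289, 324, 292 and 344 CPM, with no overlap between groups, in a place shared with *kel-1* on the other strand. Cytosolic ribosomal proteins were higher for 43 of 79 and lower for 4, with a median of 0.39. Without replicate 4 of both groups 28 were higher and 4 lower, with a median of 0.33. *rps-0* was at 1198, 1152, 1119 and 1266 CPM against 2034, 2179, 1974 and 2244 CPM, a difference of 0.83 (SE 0.12), and *rpl-1* differed by 0.83 (SE 0.14).

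Of 18 cytosolic chaperones 16 were higher and none lower, with a median of 0.79. *cct-8*, a subunit of the chaperonin ring that folds actin and tubulin, was at 59.1, 64.9, 67.9 and 67.9 CPM among wild-type replicates and 134, 153, 142 and 163 CPM among labelled-deficient replicates, a difference of 1.189 (SE 0.11). Its partner *cct-7* differed by 1.09 (SE 0.14). Of 33 proteasome subunits 24 were higher and none lower, with a median of 0.56, and *pas-6* and *pbs-1* of the core particle were at 0.89 (SE 0.13) and 0.89 (SE 0.16). For the lists named here as having no member called in a direction when fasted, other than the *cbp* and demethylase list above, edgeR at an unadjusted p under 0.05, DESeq2 and limma voom also called 0 members in that direction.

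Small heat shock proteins had 7 of 14 genes lower and 5 higher, the former led by *hsp-12.6* and its neighbour *hsp-12.3*, which was at 172, 164, 172 and 137 CPM for wild type, compared with 15.7, 21.2, 22.7 and 16.7 CPM for the labelled-deficient group. The difference of *hsp-12.3* was -3.08 (SE 0.16). The mitochondrial stress response had 7 of 12 higher and 4 lower, with the chaperonin gene *hsp-60* higher by 1.28 (SE 0.12) and *ubl-5*, of its signalling arm, lower, at -1.25 (SE 0.16). Genes of endoplasmic reticulum stress had 6 of 18 higher and 6 lower, shares near those over all tested genes, with *pdi-1* at 0.69 (SE 0.103) and *dnj-27* at -0.64 (SE 0.10). Antioxidant enzymes and metallothioneins had 10 of 27 lower and 7 higher, and 4 higher without replicate 4 of both groups. The glutathione peroxidase family gene *gpx-7* was at 31.8, 28.2, 30.9 and 25.3 CPM in the wild-type libraries against 1.99, 2.07, 2.43 and 2.38 CPM in the labelled-deficient ones, a difference of -3.71 (SE 0.17).

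Autophagy genes had 9 of 28 higher, 8 lower and a median of 0.05, against 28.2% higher and 29.3% lower over all tested genes. Without replicate 4 of both groups 5 were higher and the median was -0.01. *atg-10*, for the enzyme that joins ATG-12 to ATG-5, was lower, at -1.27 (SE 0.15), and *atg-5* was higher, at 0.83 (SE 0.12). Lysosomal proteases and the vacuolar ATPase had 22 of 51 genes lower and 10 higher. *asp-1*, an aspartyl protease gene of the intestine, was at 1193, 1109, 1169 and 1070.0 CPM among wild-type replicates and 51.8, 49.4, 54.6 and 52.98 CPM among labelled-deficient replicates. Its difference of -4.44 (SE 0.16; edgeR adjusted p 2.46e-15) took it from rank 241 to rank 4283 by mean TPM.

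Genes for the respiratory chain and ATP synthase had 19 of 60 lower and 14 higher, and 8 higher without replicate 4 of both groups. The shares over all tested genes were 29.3% lower and 28.2% higher. The list holds 10 genes encoded in mitochondrial DNA, each of them lower, and 50 nuclear genes, of which 9 were lower and 14 higher. All 12 genes of mitochondrial DNA tested were lower, from -0.72 in *nduo-5* to -1.84 in *nduo-3*, with a median of -1.31. *ctc-1*, cytochrome c oxidase subunit I, was at 9519 ± 1570 CPM for wild type against 4581 ± 612.5 CPM for the labelled-deficient group (SD, n = 4), a difference of -1.05 (SE 0.201; edgeR adjusted p 1.11e-04). *nduo-2*, a subunit of complex I, was at 435, 425, 544 and 350.1 CPM against 139.5, 169, 143 and 111 CPM, a difference of -1.64 (SE 0.39). Among fed animals 2 of the 12 were lower and the median was -0.16. The libraries were selected for polyadenylated RNA.

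Of 42 tested lysozymes, saposin-like proteins and antimicrobial peptides, which attack bacteria in the gut, 30 were lower and 2 higher, with a median of -1.25. *lys-2* was at 33.2, 33.03, 35.2 and 31.3 CPM for wild type, compared with 2.61, 2.45, 2.64 and 1.67 CPM for the labelled-deficient group, a difference of -3.81 (SE 0.18; edgeR adjusted p 9.12e-14), opposite in direction to *lys-3* beside it on chromosome V. *abf-2*, an antibacterial peptide gene, was at 59.9, 54.1, 58.02 and 53.1 CPM against 2.91, 3.21, 3.61 and 2.801 CPM, a difference of -4.17 (SE 0.16), but it lies within C50F2.2 on the other strand. C-type lectins had 58 of 121 tested genes lower and 10 higher, while 139 further members had too few reads to be tested. *clec-55* was at -3.65 (SE 0.25), in a place shared with R02D5.7 on the other strand, and *clec-49* at -3.08 (SE 0.14). Infection response genes had 4 of 17 higher and 3 lower. The p38 kinase gene *pmk-1*, of the main immune pathway, was at 31.1, 31.1, 35.1 and 32.1 CPM in the wild-type libraries against 79.3, 67.9, 71.6 and 75.2 CPM in the labelled-deficient ones, higher by 1.18 (SE 0.12).

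Detoxification enzymes were lower in a larger share than all genes. Cytochrome P450s had 35 of 64 lower and 4 higher, with a median of -0.63. *cyp-34A9* was at 141, 144, 156 and 139 CPM among wild-type replicates and 13.5, 12.2, 12.61 and 9.77 CPM among labelled-deficient replicates, a difference of -3.58 (SE 0.19). UDP-glucuronosyltransferases had 28 of 63 lower and 10 higher, with *ugt-43* at -3.44 (SE 0.198) and *ugt-18* at -2.62 (SE 0.23). Glutathione S-transferases had 20 of 41 lower and 6 higher, with *gst-15* at -2.28 (SE 0.16) and *gstk-2* at -1.64 (SE 0.18).

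Signalling genes of neurons and the body wall differed by family. Of 106 tested neuropeptide genes 21 were higher and 26 lower, both below the shares over all genes. *nlp-12*, a cholecystokinin-like peptide gene, was at 1.63, 1.54, 1.03 and 2.03 CPM for wild type, compared with 11.003, 10.9, 15.5 and 12.4 CPM for the labelled-deficient group, higher by 2.997 (SE 0.28; edgeR adjusted p 1.05e-08). *nlp-28*, of a cluster of antimicrobial peptide genes expressed in the epidermis, was at 97.2, 80.3, 79.6 and 67.2 CPM against 5.18, 10.4, 10.996 and 8.76 CPM, lower, at -3.21 (SE 0.27), and *nlp-29* of the same cluster was lower, at -2.104 (SE 0.27). Genes for neuropeptide processing and the synapse had 4 of 16 higher and 2 lower, with the peptide amidation gene *pamn-1* at -0.87 (SE 0.16) and the SNAP-25 relative *ric-4* at -0.78 (SE 0.16). Monoamine synthesis and transport had 5 of 11 lower and 1 higher. *cat-4*, for the cofactor of dopamine and serotonin synthesis, was at 114, 106, 99.4 and 69.1 CPM in the wild-type libraries against 21.4, 23.8, 21.2 and 17.8 CPM in the labelled-deficient ones, lower, at -2.21 (SE 0.19), and *tbh-1*, of octopamine synthesis, was lower, at -1.08 (SE 0.097).

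TGF-beta signalling, which sets body size and dauer entry, had 11 of 17 genes lower and 1 higher. *lon-1*, a gene that the body size branch regulates, was lower, at -1.41 (SE 0.12). *sma-2*, a Smad gene of that branch, was at -1.1903 (SE 0.18) but overlaps *tomm-70* and *ugtp-1* on the opposite strand. Hedgehog-like and patched-related genes had 24 of 63 lower and 7 higher, with *ptr-13* at -1.94 (SE 0.11) and *ptr-14* at -1.72 (SE 0.16). Transthyretin-like genes had 32 of 50 lower and 3 higher, and *ttr-44* was at 169.6, 154, 176 and 173 CPM among wild-type replicates and 23.96, 18.02, 17.7 and 19.7 CPM among labelled-deficient replicates, lower, at -3.08 (SE 0.12). *ttr-37* of that family was lower, at -2.54 (SE 0.23). The large collagen family *col* had 36 of 116 lower and 9 higher, with the adult cuticle gene *col-19* at -2.91 (SE 0.18) and *col-95* at -2.82 (SE 0.18), and *col-19* overlaps ZK1193.2 on the other strand. Few of the furrow, roller and blister collagens differed, with 2 of 20 higher and 1 lower, *dpy-14* at 0.87 (SE 0.16) and *dpy-17* at 0.35 (SE 0.14; edgeR adjusted p 0.0357). The groups overlapped for *dpy-17*, and its call was lost in 5 of the 8 fits that each omitted a fasted library. F-box A, MATH and BATH proteins, possible substrate receptors of ubiquitin ligases, had 71 of 262 lower and 62 higher. Neither share exceeded that over all tested genes, 29.3% lower and 28.2% higher. Members with large differences were *fbxa-6* at -3.27 (SE 0.27) and *fbxa-60* at -2.55 (SE 0.17). The nematode-specific peptide families *nspa* to *nspe* had 17 of 30 tested members lower and 6 higher.

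Argonautes and RNA interference factors had 30 of 44 higher and 4 lower, with a median of 0.54. *ppw-2* (WBGene00004094; minus strand of chromosome I at 5158511 to 5162232), an Argonaute gene, was at 48.9, 54.1, 54.8 and 57.3 CPM for wild type, compared with 216, 229.9, 209 and 242 CPM for the labelled-deficient group, higher by 2.06 (SE 0.13; edgeR adjusted p 1.42e-11). *sago-2* was at 2.09 (SE 0.16) but shares its place with *eme-1* on the other strand. Histone genes had 15 of 48 higher, near the 28.2% over all tested genes, and 2 lower, with *his-10* at 2.62 (SE 0.201) and *his-25* at 1.73 (SE 0.19). Most histone messages lack a poly(A) tail and their genes are nearly identical, so these values are uncertain. Histone deacetylases and sirtuins, which remove acetyl groups, had 5 of 12 higher and 4 lower. *hda-6* was at 73.6, 82.7, 82.4 and 79.3 CPM in the wild-type libraries against 186, 189, 172 and 196 CPM in the labelled-deficient ones, higher by 1.23 (SE 0.12), and *hda-10* was higher by 0.88 (SE 0.16).

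Markers of tissues moved with the genotype as well. In RNA of whole animals fewer cells of a type and less RNA per cell cannot be told apart. Of 25 markers of germline proliferation and meiosis 20 were higher and 1 lower, and their summed level was 2964 to 3375 CPM for wild type and 4717 to 5818 CPM for the labelled-deficient group. *pgl-1*, of germ granules, was at 128, 130.1, 136 and 158 CPM against 340.2, 385, 326 and 448 CPM, higher by 1.44 (SE 0.15; edgeR adjusted p 5.29e-08), and *fbf-1*, of germline stem cells, was higher by 1.51 (SE 0.13). Of 25 oocyte, eggshell and maternal genes 22 were higher and 3 lower, and their sum was 6967 to 7725 and 9356 to 12894 CPM. Among the 3 lower were the eggshell genes *perm-2* and *perm-4*. *perm-4* was at 1074, 1162, 1153 and 1185 CPM among wild-type replicates and 202, 267, 217 and 347 CPM among labelled-deficient replicates, a difference of -2.15 (SE 0.19), and *perm-2* differed by -2.14 (SE 0.17).

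Sperm markers were divided, 5 of 11 tested higher and 4 lower, with *spe-41* at 1.01 (SE 0.17) and *spe-15* at 0.85 (SE 0.16). The median of the sperm markers was 0.44, and in a fit of the fasted libraries alone it was -0.51, with 3 of 9 higher and 4 lower. A further 8 sperm markers had 4 to 65 reads in the 8 libraries together and were not tested. Major sperm protein genes had 8 of 35 members tested, 4 higher and none lower, at summed levels of 1.698 to 3.04 and 3.64 to 4.37 CPM. In a fit of the fasted libraries alone 1 was called. With food the sums were 0.879 to 1.99 CPM for wild type and 4.05 to 5.98 CPM for the labelled-deficient group. The read filter used all 4 groups, so members could be tested through labelled-deficient libraries alone. The counts therefore give no direction for the family. *msp-19* was at 2.79, *msp-57* at 2.08, *msp-36* at 1.76 and *msp-81* at 1.45, and *msp-33*, *msp-76*, *msp-31* and *msp-59* were not called. Zygotic embryo markers had 7 of 18 lower and 1 higher, with *elt-3*, also an epidermal factor, at -0.99 (SE 0.14) and *vet-6* at -0.798 (SE 0.16), and sums of 368 to 394 and 404 to 419 CPM.

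Of the somatic tissues, body muscle had 12 of 18 markers lower and 1 higher, with sums of 4891 to 5003 CPM for wild type and 2728 to 2840.1 CPM for the labelled-deficient group. *tnt-2*, a troponin T gene, was at 213, 226, 223 and 223 CPM against 89.02, 85.2, 94.3 and 87.9 CPM, lower, at -1.31 (SE 0.12), and the troponin I gene *tni-3* was lower, at -1.90 (SE 0.15). Intestine markers had 5 of 14 lower and 5 higher, with sums of 1849.7 to 2003 and 1094 to 1141 CPM, which include the values of *asp-1* given above. Without *asp-1* the direction of the sums turned, with the other 13 markers at 765 to 810 CPM for wild type and 1042 to 1088 CPM for the labelled-deficient group. The aquaporin gene *aqp-4* was at -2.04 (SE 0.18). Epidermis markers had 6 of 11 lower and 1 higher, with sums of 878 to 972 and 247 to 289 CPM. Neuron markers had 2 of 14 lower and 4 higher, with sums of 487 to 515 and 527 to 561 CPM and the proprotein convertase gene *egl-3* at 0.62 (SE 0.17). Without labelled-deficient replicate 1 the number of neuron markers higher was 2. Pharynx markers had 3 of 8 lower, *myo-2* at -1.02, *myo-1* at -0.89 and *phat-3* at -0.65, and none higher, with 1 lower when wild-type replicate 2 or labelled-deficient replicate 1 was left out. Somatic gonad and vulva markers had 4 of 10 lower and 1 higher, with *lin-11* at -0.87 (SE 0.16) and *ipp-5* at -0.64 (SE 0.13). None of the tested markers was without reads in either group, and the part of tissue make-up in the differences of the metabolic, defence and translation genes was not tested.

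**Figure D2:**
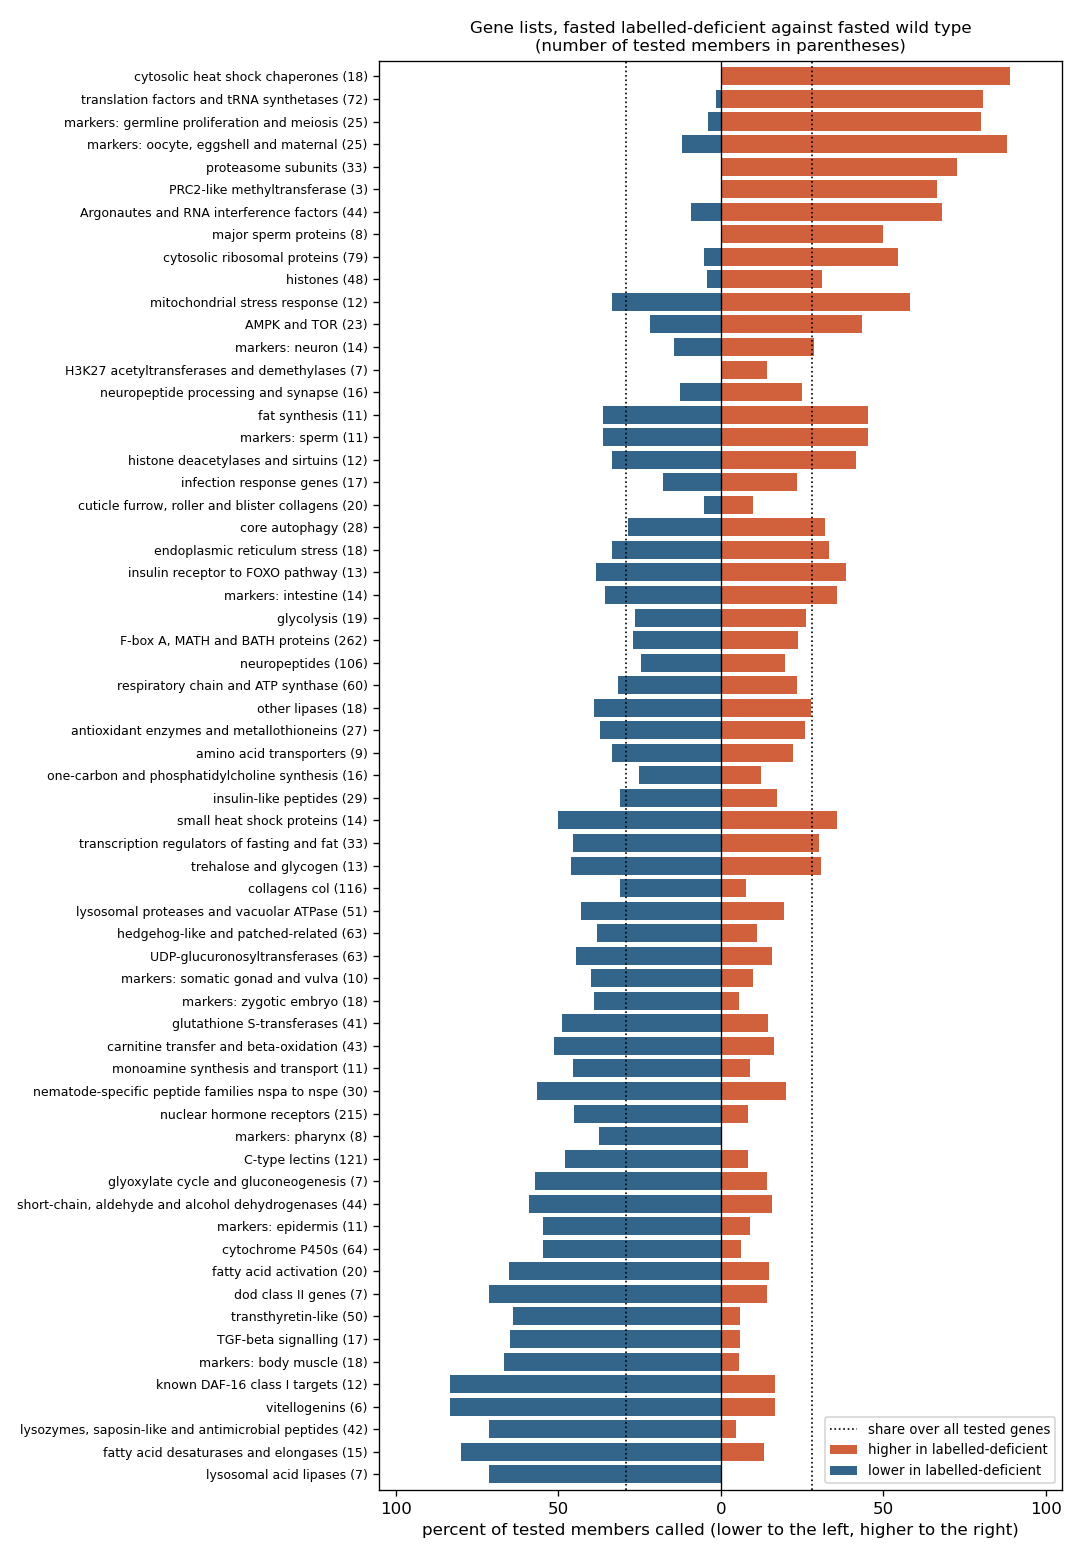
Percent of the tested members of each of 63 gene lists called higher (to the right) or lower (to the left) in fasted labelled-deficient libraries, with dotted lines at the shares over all tested genes, 28.2% higher and 29.3% lower. Cytosolic chaperones, translation factors, germline and oocyte markers extend to the right and lysosomal acid lipases, desaturases, lysozymes and DAF-16 targets to the left. Lists that end near both dotted lines have shares like those of all genes.

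The chromosomes differed in the share of genes called. On chromosome X 178 of 2298 tested genes (7.75%) were higher and 1010 (44.0%) lower in fasted labelled-deficient libraries, with a median of -0.33. On the autosomes together 31.7% were higher and 26.8% lower. Chromosome I had 39.2% higher and 21.6% lower, and chromosome V had 22.3% higher and 33.5% lower. At a mean of at least 100 CPM, 8.59% of 128 genes on X were higher and 73.4% lower, against 54.3% and 19.8% of 2187 autosomal genes. The share lower was closer at low levels. It was 54.1% on X against 28.2% on autosomes at 10 to 100 CPM and 40.8% against 34.7% at 1 to 10 CPM. Under 1 CPM it was 15.3% against 14.1%. No test was made over the genes of a chromosome, and in the alternatives run, 33.9% to 59.6% of tested X genes were lower and 5.09% to 9.44% higher. Fed animals showed 12.4% higher and 44.6% lower on X. Germline markers, whose sums are given above, were higher in the same libraries, and their part in the difference between X and autosomes was not tested.

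**Figure D3:**
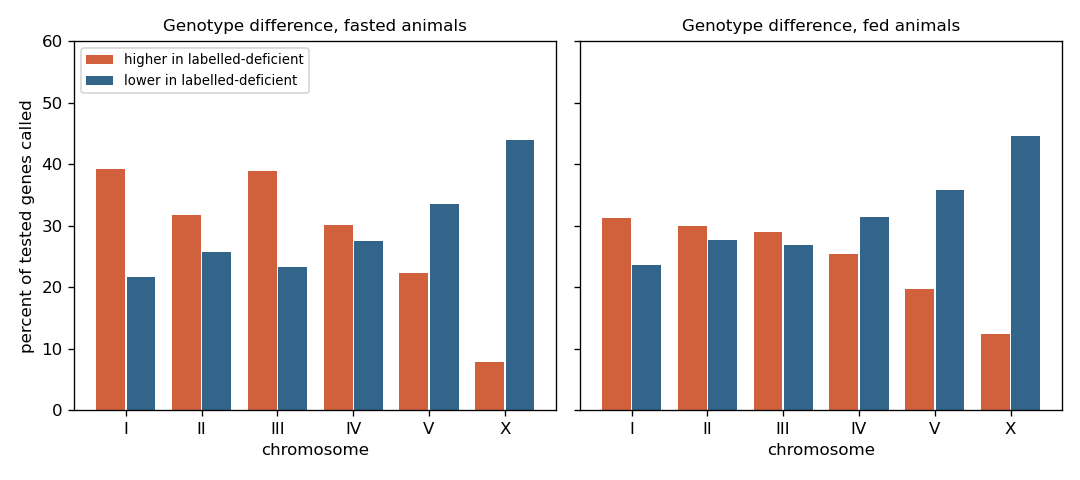
Percent of tested genes called higher (left bar of each pair) and lower (right bar) in labelled-deficient libraries for chromosomes I to V and X, for fasted animals (left panel) and fed animals (right panel). In both panels the X chromosome has the lowest share higher and the highest share lower, 7.75% and 44.0% when fasted.

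The fasted difference was set beside the difference between the same genotypes with food, which shares no library with it. When fed, 8908 genes (56.2%) were called, 24.6% higher and 31.7% lower. Of the 4472 genes higher when fasted, 2653 (59.3%) were also higher when fed, which is 68.2% of the 3890 genes higher when fed, and 262 were lower. Of the 4642 genes lower when fasted, 3097 (66.7%) were also lower when fed, which is 61.7% of the 5018 genes lower when fed, and 126 were higher. The interaction, the fasted difference minus the fed one, was called for 4109 genes (25.9%), 2304 (14.5%) positive and 1805 (11.4%) negative. A fit that takes the replicate number as a block called it for 6422 genes. Which sign prevailed depended on the scaling, with 1723 positive and 2165 negative under DESeq2 size factors and 989 and 3547 under library size alone, which moved the median of all genes by -0.29.

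Lists differed in how far the fasted comparison departed from the fed one. Lysosomal acid lipases had a median of -2.67 when fasted and -1.16 when fed, with 4 of 7 interactions negative and 1 positive. *lipl-4* was at -3.75 when fasted and 0.102 when fed, an interaction of -3.85 (SE 0.88). DAF-16 class I targets had medians of -1.61 and -0.29, and 8 of 12 interactions were negative and none positive by edgeR, with 2 positive at an unadjusted p under 0.05 and 0 by DESeq2 and limma voom. *hsp-12.6* had an interaction of -6.43 (SE 0.37) and *sod-3* one of -1.29 (SE 0.33). Desaturases and elongases had medians of -1.52 and -0.66, with 6 of 15 interactions negative and 2 positive. For these 3 lists the negative interactions were the more numerous under each of the 3 scalings. That could not test the direction, because both other scalings moved interactions downward. The median of all genes shifted by -0.07 under DESeq2 size factors and by -0.29 under library size alone. Transthyretin-like genes had 22 of 50 negative and 7 positive.

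Neuropeptides went the other way. When fed 72 of 106 were lower and 1 higher, with a median of -0.72, while the fasted median was -0.07. 50 of their interactions were positive and 7 negative, against positive for 39 and negative for 13 under library size alone. *nlp-12* was at -0.19 when fed and 2.997 when fasted, an interaction of 3.19 (SE 0.38), and *egl-3* at -1.05 and 0.62, an interaction of 1.67 (SE 0.24). Lysosomal proteases and the vacuolar ATPase had 28 of 51 interactions positive and 11 negative, although *asp-1* had a negative one of -2.32 (SE 0.198). Oocyte markers had 18 of 25 positive and 1 negative, with medians of 0.28 when fed and 1.15 when fasted, and under library size alone 10 were positive. Ribosomal protein genes had 8 of 79 lower and 1 higher when fed, a direction that turned under library size alone, with 27 higher and 2 lower. Cuticle furrow, roller and blister collagens were higher for 10 of 20 when fed, against 2 when fasted, and 8 of their interactions were negative.

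The largest positive interactions among genes with at least 5 CPM over all libraries were in genes at low levels in both fasted groups. *irg-5*, an infection response gene, was at 30.96 ± 6.58 CPM for wild type with food against 1.86 ± 0.100 CPM for the labelled-deficient group with food (SD, n = 4), and at 1.36, 1.81, 1.56 and 2.50 CPM against 1.65, 2.07, 1.99 and 2.09 CPM when fasted. The fasted groups overlapped, and the interaction was 4.15 with an edgeR adjusted p of 4.12e-10. *drd-50* and C17H12.6 had interactions of 4.44 (SE 0.59) and 4.19 (SE 0.395), T24B8.5 one of 4.23 (SE 0.69) and *col-43* one of 5.06 (SE 0.68). Of these 5, *drd-50* alone was called when fasted, with 14, 18, 17 and 16 reads in wild type and 1, 1, 4 and 6 reads in labelled-deficient libraries, a ratio of 5.10-fold lower with a 95% counting interval of 2.73 to 10.4. The largest negative interactions after *hsp-12.6* belonged to F40G12.5 with -4.73 (SE 0.41), to *ech-9* with -4.25 (SE 0.25), to T23E7.6 with -4.24 (SE 0.24) and to *ins-19* with -4.24 (SE 0.48). F40G12.5 was at 57.7, 57.1, 60.8 and 46.5 CPM among fasted wild-type replicates against 2.91, 4.14, 3.23 and 4.41 CPM among fasted labelled-deficient ones, and T23E7.6 at 199, 176, 179.8 and 156 CPM against 18.3, 28.4, 29.2 and 26.2 CPM. For these genes the groups did not overlap when fasted.

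**Figure D4:**
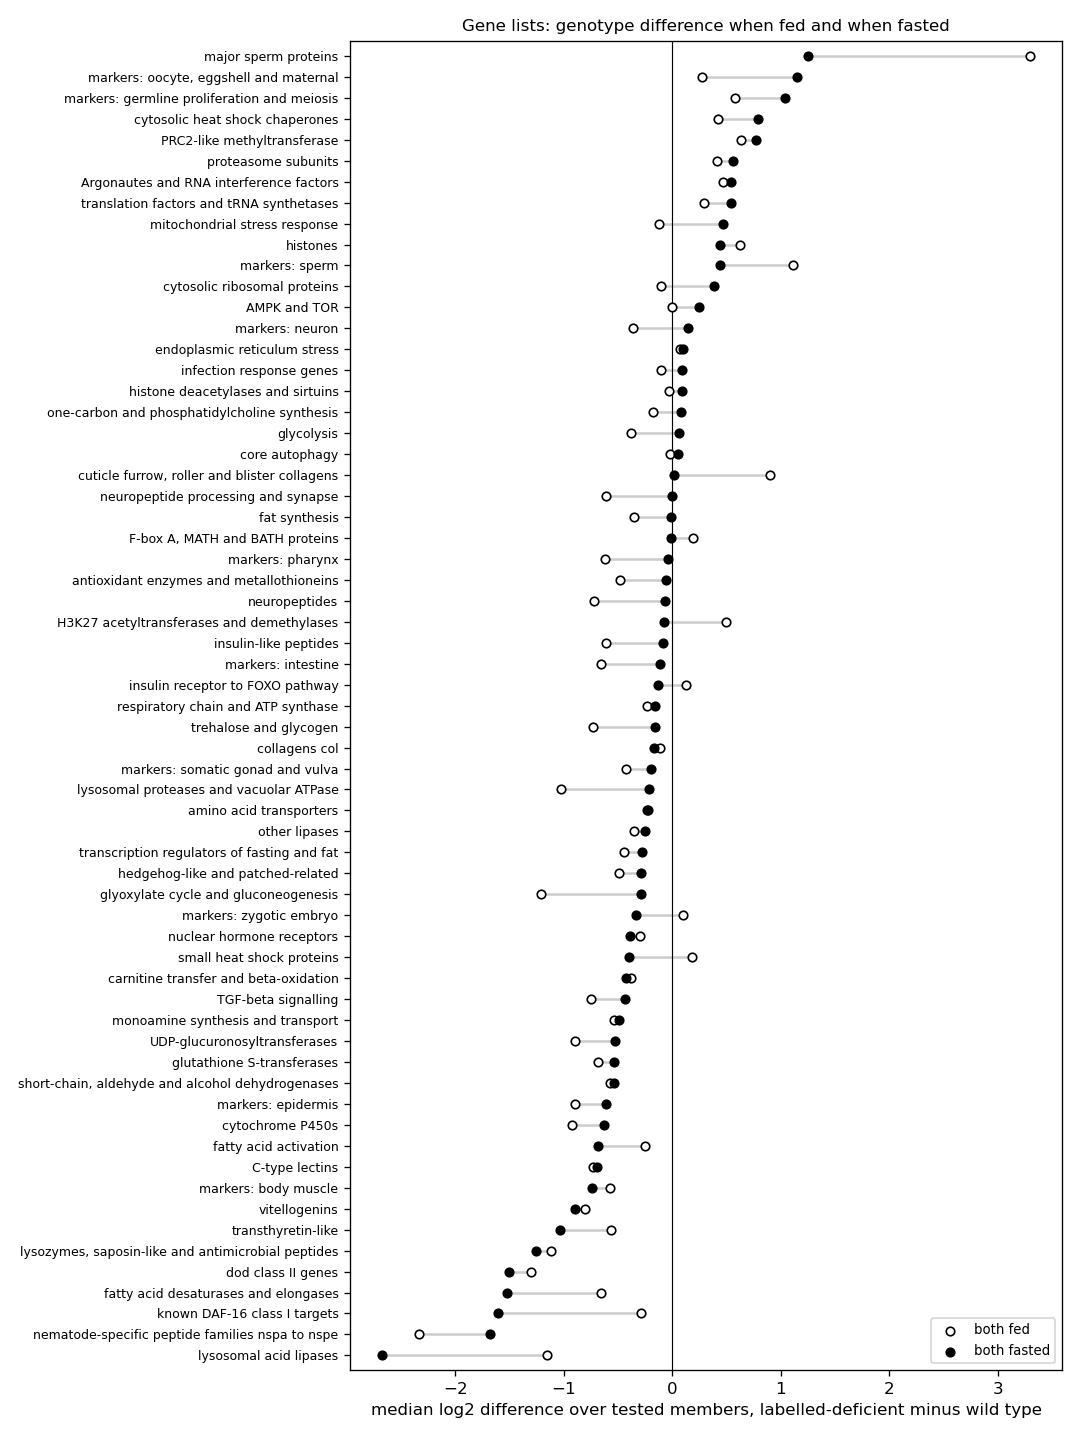
Median log2 difference between genotypes over the tested members of each of 63 gene lists, for fed animals (open circles) and fasted animals (filled circles). Lysosomal acid lipases move from -1.16 when fed to -2.67 when fasted and neuropeptides from -0.72 to -0.07; the fed medians shift by 0.29 under library size alone, so fed medians near 0, among them that of the ribosomal proteins, change sign with the scaling.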

How the data were processed

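RNA of whole animals was selected for polyadenylated molecules and sequenced as paired reads of 150 bases, in a single batch. The authors deposited a table of estimated counts per gene for all 16 libraries and, for each library, a Salmon file with TPM and estimated counts per transcript. The submitters' processing notes name FastQC 0.11.8, MultiQC 1.19, Salmon 1.9.0, R 4.3.2 and DESeq2, and the builds WBcel235 and ce11. Whether strand was used is not given in the sources used here. The estimated counts in the deposited gene table need not be whole and were rounded to whole numbers. The table holds 21982 genes. Positions, on WBcel235, came from the Ensembl annotation, and 20 of the tested genes had none. TPM, as deposited per transcript, was summed per gene for the 8 fasted libraries and used only for ranks and the transcripts of the targets.

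The main test was the quasi-likelihood F test of edgeR 4.0.16 (R 4.3.3, robust) on all 16 libraries with a coefficient per group, after filterByExpr by group and TMM scaling. Adjusted p-values are Benjamini-Hochberg over 15840 genes, two-sided, and SE is the log2 difference over the square root of F. The interaction is the fasted minus the fed genotype difference. The test was run on simulated data first. Gene lists are described by counts and medians only. The members and the 63 lists were chosen with earlier results of these data known. Named genes are the 2 targets, the 10 largest differences in each direction at a mean of at least 5 CPM without overlap, up to 2 members of each list with the largest difference at that level, any tested member of lists of at most 8, and the 5 largest interactions of each sign. The other genes with values, those of mitochondrial DNA, were chosen after their values were seen. Of the 136 named genes, 11 overlap a tested gene on the opposite strand by at least 200 bases. Counting intervals are 95% and cover counting error only.

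Alternatives were DESeq2 1.42.0, limma voom 3.58.1, DESeq2 size factors, library size alone, no filter, a filter of 5 CPM in 4 libraries, an adjusted p of 0.01, the fasted libraries alone, the replicate number as a block and each library left out. The replicates are stated to be biologically independent, and p-values measure the spread between these samples. Pairs of libraries of the same fasted group differed beyond sampling noise, with chi-square over degrees of freedom of 5.75 to 22.8 in 12 pairs. Promoter motifs were not analysed here.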

Additional observations from a re-analysis of the deposited data

Results flagged for a closer look

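A single library lay apart from the other 3 of its fasted group in 14 of the 272 groups of 4 libraries examined for the 136 named genes, by the criterion of Dixon at 95%, which chance alone meets in about 1 group of 20. In the labelled-deficient group the highest library stood apart for *cbp-1* at 322 CPM and *dhs-21* at 23.4 CPM. In the labelled-deficient group the lowest library stood apart for *cyp-25A1* at 0.417 CPM, *mes-6* at 60.3 CPM and *tni-3* at 4.79 CPM. In the wild-type group the highest library stood apart for *scl-11* at 0.268 CPM, W09G12.7 at 28.5 CPM, *dgat-2* at 15.8 CPM, *aakg-4* at 41.22 CPM, *ife-3* at 137 CPM, *his-25* at 16.1 CPM and *lin-11* at 8.87 CPM. In the wild-type group the lowest library stood apart for *mes-6* at 25.8 CPM and *elo-6* at 858 CPM. 

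The log2 difference between genotypes when fasted differed from that when fed, by the interaction test of edgeR at an adjusted p of 0.05, for 84 of the 136 named genes, positive in 32 and negative in 52. Over all tested genes 25.9% were called, 14.5% positive and 11.4% negative. Named genes were chosen mostly for large fasted differences or interactions, which use the same fasted libraries. Their counts therefore do not describe genes at large. Some of the 84 interactions lost the call in many alternatives: *atg-5* in 14 of the 16 that leave out a library and 5 of 8 others, *cct-7* in 11 and 4, ZK355.3 in 11 and 5, *vit-5* in 11 and 2, *hda-10* in 10 and 6, and *perm-4* in 9 and 3. Among genes of largest fasted difference or largest interaction, it was negative at -6.43 for *hsp-12.6*, -4.73 for F40G12.5, -4.24 for T23E7.6, -4.24 for *ins-19*, -2.61 for *fipr-24*, -2.58 for *nspc-18*, -1.85 for *asp-13* and -1.52 for *nspc-17*. In the same set it was positive at 5.06 for *col-43*, 4.44 for *drd-50*, 4.35 for *scl-11*, 4.23 for T24B8.5, 4.19 for C17H12.6, 4.15 for *irg-5*, 3.804 for K11H12.4, 3.69 for *lys-3*, 2.89 for C50F7.5, 2.47 for ZK355.3, 1.56 for W09G12.7 and 1.099 for K04A8.21. Among fat and carbon metabolism genes, it was negative at -4.25 for *ech-9*, -3.85 for *lipl-4*, -3.06 for *cpt-3*, -2.53 for *lipl-3*, -2.34 for *dhs-20*, -1.92 for *acdh-1*, -1.81 for *vit-3*, -1.57 for *acs-3*, -1.501 for *dhs-21*, -1.14 for *elo-6*, -1.004 for *fat-3*, -0.94 for *fil-1*, -0.797 for *acs-22*, -0.77 for *aldo-2*, -0.71 for *tps-1* and -0.51 for *vit-5*. In the same set it was positive at 1.43 for *dgat-2*. Among genes of signalling and stress, it was negative at -2.76 for *hsp-12.3*, -2.32 for *asp-1*, -1.798 for *gpx-7*, -1.29 for *sod-3*, -1.23 for *nhr-143*, -1.06 for *ubl-5*, -1.01 for *aakg-4*, -0.99 for *nhr-68*, -0.76 for *atg-10*, -0.75 for *akt-2* and -0.75 for *ist-1*. In the same set it was positive at 2.13 for *ins-22*, 1.02 for *aak-1*, 0.72 for *rpl-1*, 0.58 for *tars-1*, 0.56 for *pdi-1*, 0.55 for *rps-0*, 0.54 for *cct-8*, 0.53 for *cct-7* and 0.45 for *atg-5*. Among defence and detoxification genes, it was negative at -2.08 for *ugt-43*, -1.802 for *ugt-18*, -1.48 for *clec-55*, -1.37 for *cyp-34A9*, -1.192 for *clec-49*, -1.11 for *gst-15*, -0.84 for *lys-2* and -0.79 for *abf-2*. Among neuronal, cuticle and secreted protein genes, it was negative at -1.84 for *nlp-28*, -1.76 for *fbxa-6*, -1.51 for *fbxa-60*, -1.21 for *nlp-29*, -1.1905 for *col-19*, -0.95 for *dpy-14* and -0.56 for *ttr-44*. In the same set it was positive at 3.19 for *nlp-12*, 1.67 for *egl-3* and 0.53 for *tbh-1*. Among chromatin genes and tissue markers, it was negative at -0.97 for *vet-6* and -0.86 for *lin-11*. In the same set it was positive at 1.98 for *sago-2*, 0.97 for *his-10*, 0.75 for *perm-4*, 0.72 for *ipp-5*, 0.68 for *perm-2*, 0.63 for *hda-10* and 0.58 for *hda-6*.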

How the results depend on the processing

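Over all alternatives, 160 recomputed counts over all genes stayed within 1.5 times the value reported and 8 did not. The fasted count of 9114 genes ranged from 7511 to 10022. The 8 that moved concern the interaction, reported as 4109 genes called, 2304 positive and 1805 negative. An adjusted p of 0.01 gave 2129 called, 1215 positive and 914 negative. More interactions were positive than negative as reported, and the balance turned under library size alone (989 and 3547), DESeq2 (1925 and 2400) and DESeq2 size factors (1723 and 2165). The filter of 5 CPM gave 1103 of at least 2-fold where 1837 were reported. Same-numbered fasted libraries deviated from their group means with correlations of -0.047 to 0.159 and differently numbered ones with -0.125 to 0.142. The ranges overlapped, and the highest value, 0.159, was that of replicate 4, so this check does not settle whether the numbers pair the fasted libraries. Same-numbered fed libraries of the 2 genotypes had correlations of 0.114 to 0.424, against -0.275 to 0.082 for differently numbered ones. Between fed and fasted wild type the values were 0.075 to 0.342 and -0.189 to 0.132. The main fit has no term for the replicate number. The fit with a replicate block called 10000 genes when fasted, 9951 when fed, and 6422 for the interaction, of which 3843 were positive. Not every library correlated best with its own number.

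Of the counts of list members when fasted, 2136 stayed within 1.5 times and 132 moved. In major sperm proteins the number higher was 7 with no filter and 0 with the filter of 5 CPM. Beta-oxidation genes higher came to 3 or 4 without any 1 of wild-type replicates 2, 3 and 4 or labelled-deficient replicate 4, against 7. Several lists with 2 or fewer members called in a direction gained or lost 1 or 2 when a library was left out, among them the *cbp* and demethylase list, with 2 lower without wild-type replicate 4. List medians changed sign for cuticle collagens (-0.01) and neuropeptide processing (-0.03) under DESeq2 size factors, and without replicate 4 of both groups also for glycolysis (-0.07) and autophagy (-0.01). That of insulin-like peptides turned under the filter of 5 CPM (0.18), that of antioxidant enzymes with no filter (0.04) and that of sperm markers, reported as 0.44, in the fasted libraries alone (-0.51). Of 131 named genes called when fasted, 130 kept the call under every alternative run; the exception, *dpy-17*, reached an adjusted p of 0.151. Of 84 named interactions called, 63 kept the call under every alternative and 21 lost it in at least 1, 11 of these when a library was left out. The cause was not tested. Genes with few reads, such as *ins-19* in labelled-deficient and *scl-11* in wild-type libraries, have differences limited by counting.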

Other observations

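By mean TPM over the 4 libraries of a group, a level per transcript length ranked among 21981 genes, several named genes changed their place. *ins-19* went from rank 2156 in fasted wild type, at 66.8 ± 5.96 TPM, to rank 15652 in labelled-deficient libraries, at 0.470 ± 0.145 TPM (SD, n = 4). *lipl-3* went from rank 1038 to rank 7399 and *acdh-1* from rank 1798 to rank 9477. In the other direction *scl-11* went from rank 16868 to rank 4729, K04A8.21 from rank 4553 to rank 256 and W09G12.7 from rank 6804 to rank 1432. The yolk gene *vit-5* went from rank 69 to rank 137 and *rps-0* from rank 128 to rank 53. These ranks are a description of group means, and no test was made on them.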
